A study of Mus musculus with 768 samples.

Results

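Endothelial cells sorted with the antibody MECA-79 from PyMT tumours, a transgenic mouse model of breast cancer, were divided by their own Chst4 transcript. The cells were chosen by that measured value: 41 TU_HEV cells (MECA-79-positive tumour endothelium) with Chst4 at 10 CPM or more were set against 50 TU_HEV cells with 0 Chst4 counts. CPM are counts per 1000000 counts of the cell or of the summed class. The remaining 7 of the 98 TU_HEV cells that passed the filters held 1 to 6 Chst4 counts and belong to neither class. The series has 768 wells, with 96 TU_HEV wells on each of the plates pool3 and pool4, and 561 cells of the series passed the same filters. All TU_HEV cells were negative for CD45 and positive for CD31 and MECA-79 at the sort, after bead depletion of CD45 and EpCAM cells, so both classes passed the same gate and come from the same tumour model. Lymph node cells from the same gate (LN_HEV) and MECA-79-negative tumour endothelial cells (TU_EC) serve as reference levels. The labels name no strain, age, treatment or animal, so each class counts as 1 sample. There is therefore no test of any difference, and the 2 plates are shown side by side in place of replicates.

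High endothelial venules (HEVs) are the vessels through which lymphocytes leave the blood in lymph nodes, and vessels of this kind also form in some tumours. Their cells display sulfated, sialylated and fucosylated O-glycans on mucin-like proteins, which L-selectin on lymphocytes recognises, and MECA-79 binds a sulfated form of these glycans. Chst4 encodes an N-acetylglucosamine sulfotransferase that is a hallmark of HEV cells, Chst2 encodes a related enzyme that adds the same sulfate, and B3gnt3 extends the O-glycan on which the epitope is built. Venous endothelium is known for Selp (P-selectin) and Ackr1 (the atypical chemokine receptor of venules), and capillary endothelium for Gpihbp1, which holds lipoprotein lipase at the vessel wall.

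The promoters of 3 genes on which the description turns are printed here from RefSeq (build GRCm38.p6), each from 250 bases before to 50 bases after the start site, 5′ to 3′ on the gene's strand. Chst4 (chr8:110039285-110039584, minus strand) defines the classes, Cxcl10 (chr5:92348840-92349139, minus strand) is a chemokine gene higher in the positive class, and Cldn5 (chr16:18776597-18776896, plus strand) is a tight junction gene found in part of the negative class. Capitals mark matches on either strand to an NF-kB motif (GGGANNTTC) or an IRF motif (GAAANNGAA). A SOX motif (AACAAT) was searched as well.
Chst4: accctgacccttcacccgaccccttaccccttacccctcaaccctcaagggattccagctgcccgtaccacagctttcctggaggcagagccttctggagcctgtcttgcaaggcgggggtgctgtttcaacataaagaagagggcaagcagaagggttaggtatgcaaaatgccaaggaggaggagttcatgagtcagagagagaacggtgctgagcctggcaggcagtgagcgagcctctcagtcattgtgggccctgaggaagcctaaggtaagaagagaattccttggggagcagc
Cxcl10: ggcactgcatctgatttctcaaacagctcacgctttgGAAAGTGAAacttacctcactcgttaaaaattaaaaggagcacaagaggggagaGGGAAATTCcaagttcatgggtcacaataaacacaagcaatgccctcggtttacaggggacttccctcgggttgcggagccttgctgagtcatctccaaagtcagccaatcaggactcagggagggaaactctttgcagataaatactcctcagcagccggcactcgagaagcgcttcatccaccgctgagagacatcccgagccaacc
Cldn5: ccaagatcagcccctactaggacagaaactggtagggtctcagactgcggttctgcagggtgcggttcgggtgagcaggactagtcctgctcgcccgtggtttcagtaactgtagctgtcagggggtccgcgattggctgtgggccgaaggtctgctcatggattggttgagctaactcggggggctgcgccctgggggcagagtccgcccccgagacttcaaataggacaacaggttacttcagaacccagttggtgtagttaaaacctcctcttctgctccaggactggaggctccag
The Cxcl10 promoter held 1 NF-kB match and 1 IRF match, which do not overlap, and the Chst4 and Cldn5 windows held none of the 3 motifs. Of all 32851 promoters in the table, 3.94% held the NF-kB motif, 8.56% the IRF motif and 10.7% the SOX motif. Among the 30 genes named below, 18 had a promoter in the table. Cxcl10 was the only one of these with an NF-kB match, and Cxcl10 and Notch4 were the ones with an IRF match. A match is a description of the letters and not a binding site.

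Chst4 itself was nearly an on-or-off value. In pool3, 25 positive cells had 106.9 to 1046 CPM with a median of 510, 24 cells had none and 1 lay between. In pool4, 16 positive cells had 16.2 to 1088 CPM with a median of 290.7, 26 cells had none and 6 lay between. The lowest positive cell had 40 Chst4 counts (16.2 CPM) and the next had 106.9 CPM, while the highest of the 7 cells between the classes had 5.19 CPM. These values chose the classes and are not a result. By read sampling alone, a count of 0 allows up to 10.8 CPM in the shallowest negative cell (276667 counts). At the median depth of the class it allows 2.49 CPM, where the median positive cell had 424 CPM. These limits do not cover transcripts lost before sequencing. Thinning each cell to 100000 counts left Chst4 detected in 41 of 41 positive cells. In the reference groups, 97.96% of LN_HEV cells had Chst4 at 10 CPM or more (1117 CPM over the group), and TU_EC had no Chst4 count.

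**Figure D1:**
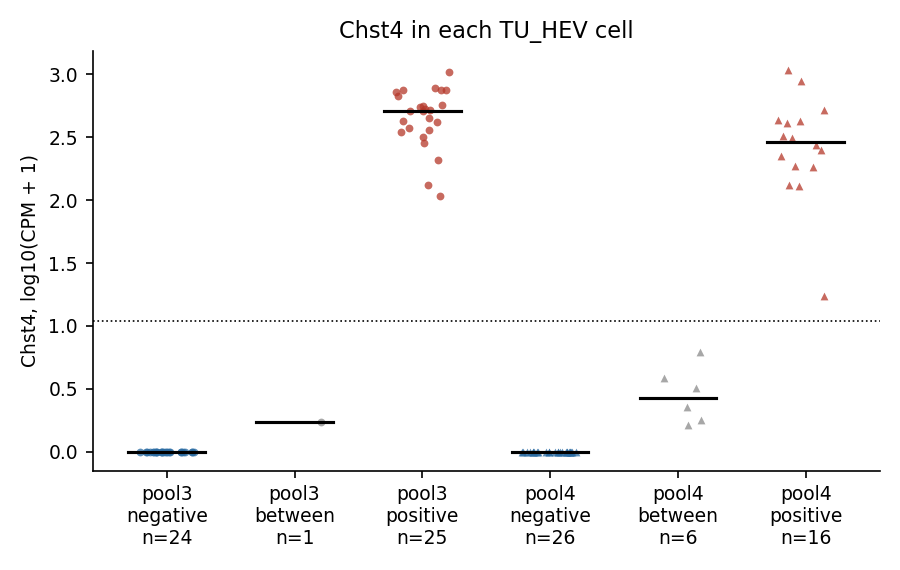
Chst4 in each TU_HEV cell by plate and class, on the vertical axis as log10(CPM + 1). Each point is a cell, the bars are medians, the dotted line is at 10 CPM, and positive cells of both plates sit above it with a median of 510 CPM in pool3 and 290.7 CPM in pool4.

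The classes differed in depth, and some cells were also present in lymph node libraries. The median total was 1578320 counts in positive and 1042748 in negative cells of pool3, and 2150027 and 1644878 in pool4. The class totals were 70695531 and 66667808 counts. The median number of genes with a count was 4162 in positive and 3362 in negative cells, and 3402 against 2708 when each cell was thinned to 100000 counts, so the positive cells showed more genes at equal depth too. Mitochondrial genes took a median of 3.15% of counts in positive and 4.15% in negative cells. For 16 of the 91 cells (6 positive, 10 negative), at least 99.8% of the counts were found gene by gene inside libraries of the lymph node plate pool1, against at most 88.2% for any other retained TU_HEV cell. The 11 pool1 libraries that hold them were left out of the LN_HEV reference, and a named gene's ratio without the 16 cells is given where it moved by over 1.5 times. The 10 pan-endothelial markers summed to 3092 to 15050 CPM in positive and 2234 to 15786 CPM in negative cells. The cell filter used 5 of them, so a sum above 0 in every cell was set in advance. The 6 epithelial and tumour markers, Epcam and Cdh1 among them, were at 0 in every cell of both classes. Of the 6 leukocyte markers, Ptprc (CD45), Cd52 and Laptm5 were at 0 in both classes, and 1 cell of each class had 2 of the markers at 10 CPM. The summed leukocyte level was 0 to 678 CPM (median 231.5) in positive and 0 to 1421 CPM (median 19.4) in negative cells. Mural and fibroblast markers reached at most 85.1 and 67.4 CPM in a cell, lymphatic markers 207.7 and 249.9 CPM, T cell markers 250.3 and 290.7 CPM, myeloid markers 194.8 and 153.3 CPM, erythroid and platelet markers 285.5 and 141.5 CPM, and B cell markers 107.1 and 0.752 CPM.

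A clear difference lay in the share of cells with Selp, Ackr1, Cldn5 or Gpihbp1. Other venous and capillary genes, given below, did not all follow it. Every positive cell (41 of 41) had Selp at 10 CPM or more, against 29 of 50 negative cells. By plate this was 25 of 25 against 16 of 24 in pool3 and 16 of 16 against 13 of 26 in pool4. Ackr1 was at that level in 38 of 41 positive and 24 of 50 negative cells. Conversely, Cldn5, the main claudin of endothelial tight junctions, was found in 2 of 41 positive and 20 of 50 negative cells, and Gpihbp1 in 6 of 41 and 21 of 50. Among the negative cells these genes were rarely found together: 25 had Selp or Ackr1 without Cldn5 or Gpihbp1, 19 had Cldn5 or Gpihbp1 without Selp or Ackr1, 4 had genes of both pairs and 2 had neither. These 4 genes were picked for this count after their values had been seen. The pattern stood in both plates, with 14 and 7 cells of the respective kinds in pool3 and 11 and 12 in pool4. Without the cells held in lymph node libraries, Selp was found in 35 of 35 positive and 21 of 40 negative cells. The negative cells with Cldn5 or Gpihbp1 alone had a median of 1216286 counts and those with Selp or Ackr1 a median of 1213189, so these cells of the negative class were of like depth. In the reference groups, Selp or Ackr1 was found in 93.2% of LN_HEV and 14.8% of TU_EC cells, and Cldn5 or Gpihbp1 in 51.7% and 86.9%. In LN_HEV the first value came from Ackr1 (91.8% of cells), since Selp was found in 14.3% of LN_HEV and 13.8% of TU_EC cells. The second value came from Cldn5 (50.3% of cells) and hardly from Gpihbp1 (3.40%).

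**Figure D2:**
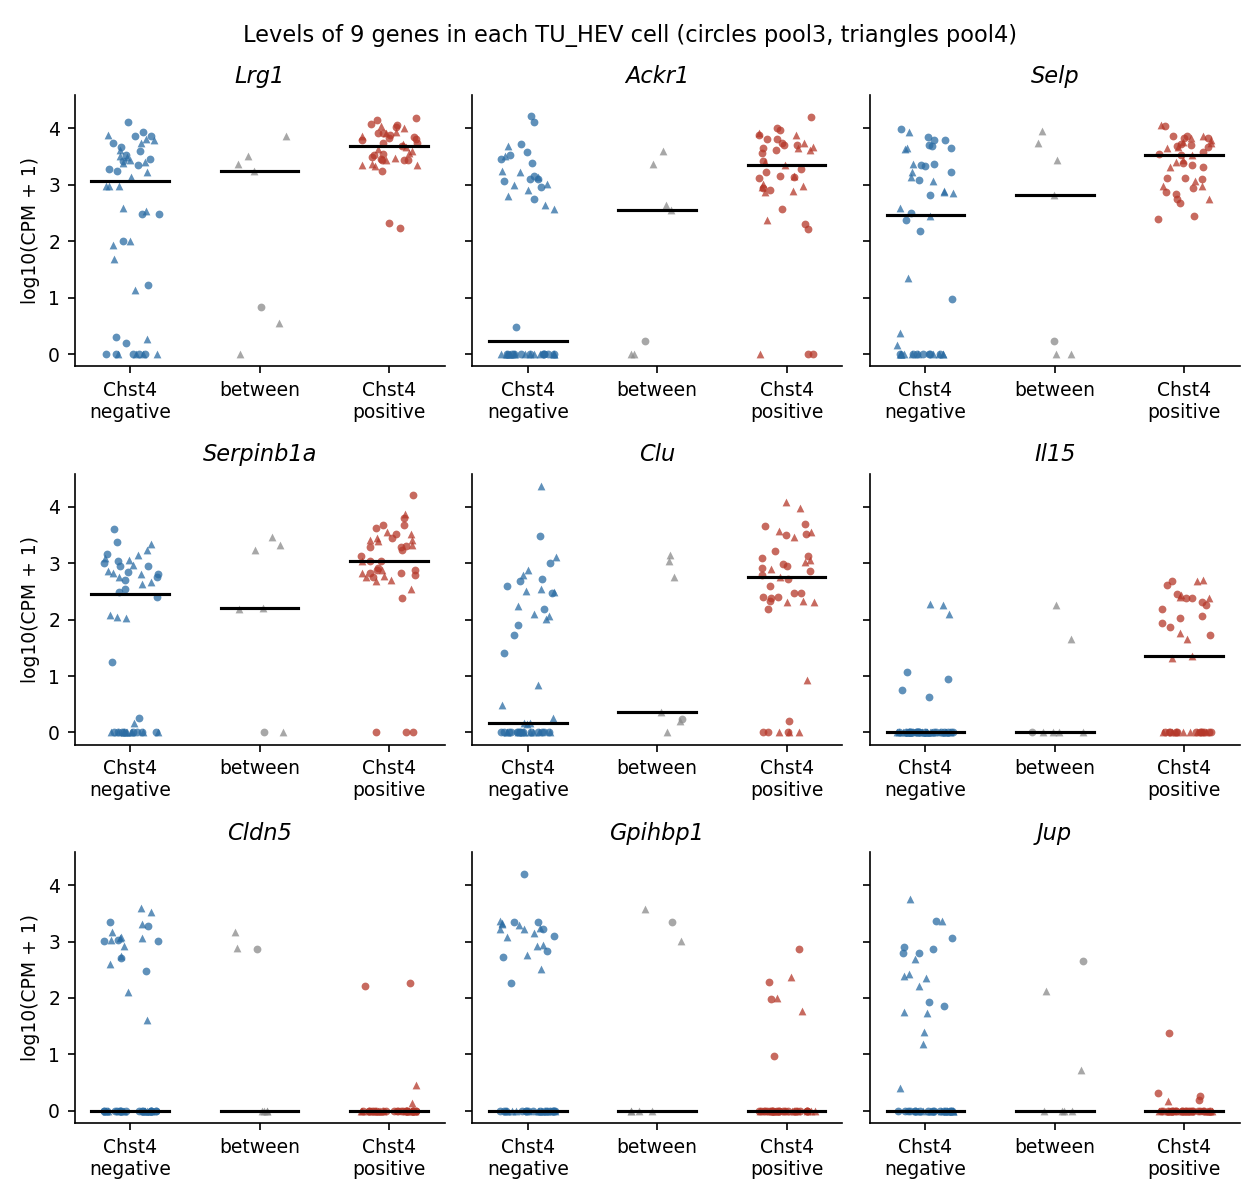
Levels of 9 genes in each cell as log10(CPM + 1), by class (circles pool3, triangles pool4, bars medians). Selp was at 10 CPM or more in 41 of 41 positive cells and in 29 of 50 negative cells, and Cldn5 was at that level in 2 and 20 cells.

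Across the transcriptome, 7549 genes reached 20 CPM in a class. Of these, 4.94% were at least 2-fold higher and 5.82% (439 genes) at least 2-fold lower in positive cells in both plates and over both together. The median log2 ratio of positive over negative cells was 0.02 over these genes, 0.08 in pool3 and -0.01 in pool4. A further 451 genes (5.97%) were at least 2-fold apart in opposite directions in the 2 plates, so a gene's place in either set is by itself weak information. Across genes, which are not independent replicates, the Spearman coefficient between the plates' log2 ratios was 0.17 over the 7549 genes and 0.52 over the genes at 500 CPM or more. Without the 16 shared cells, 74.0% of the higher and 77.2% of the lower genes stayed in their set. The 15 genes named each way had the largest ratios, taken in the plate with the smaller one, under a rule that also asks for a count in 30% of cells and for a ratio that does not rest on the highest cell. The rule was met by 85 genes higher and 49 lower in positive cells.

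**Figure D3:**
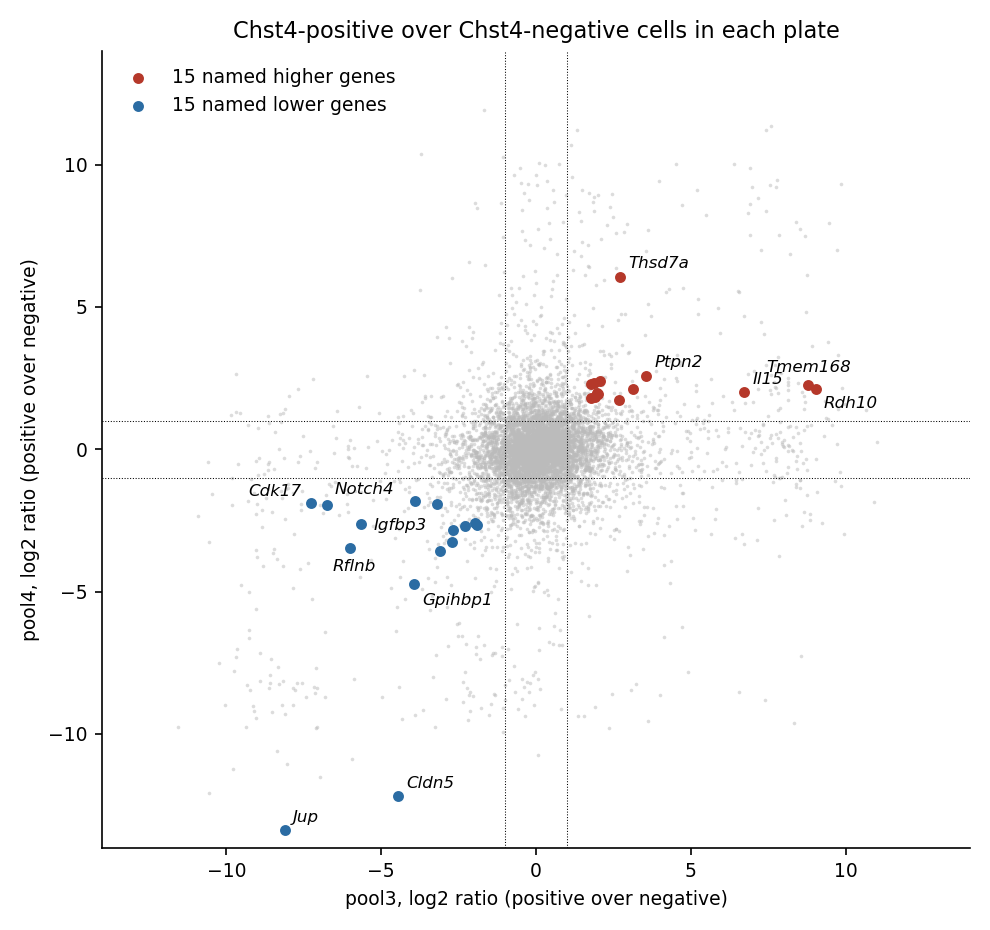
Log2 ratio of positive over negative cells in pool3 (horizontal) and pool4 (vertical) for the genes at 20 CPM or more in a class with a ratio in both plates. Dotted lines mark 2-fold, red and blue points are the 15 genes named each way, and Il15 lies at 6.71 and 2.01, Jup at -8.12 and -13.4.

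The 15 genes named as higher in positive cells included Il15, Cxcl10, Sirpa and Ptpn2. Il15 (chr8:82331632-82403222, GRCm38), a cytokine that sustains natural killer and memory T cells, was at 112.8 CPM in positive and 1.08 CPM in negative cells of pool3, and at 111.6 and 27.6 CPM in pool4. Single positive cells ranged from 0 to 493 CPM with a median of 21.7, and negative cells from 0 to 185.02 with a median of 0. It was at 10 CPM or more in 13 of 25 against 1 of 24 cells of pool3 and in 9 of 16 against 3 of 26 of pool4, so cells without it were found in both classes. The ratio of the class sums was 6.48 (95% interval 6.09 to 6.90), and 4.84 without the shared cells. Intervals cover counting error only, since amplified reads without identifiers do not stand for separate molecules. At equal depth, 22 of 41 positive and 5 of 50 negative cells held an Il15 count.

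Cxcl10 (chr5:92346638-92348889), an interferon-induced chemokine for CXCR3-bearing T cells, was at 955 against 278.2 CPM in pool3 and 525 against 150.3 CPM in pool4. In single cells it ranged from 0 to 3514 CPM (median 126.8) in positive and from 0 to 2556 CPM (median 0) in negative cells. Cells at 10 CPM or more numbered 15 of 25 against 6 of 24 in pool3 but 8 of 16 against 8 of 26 in pool4, so the ranges overlapped widely and the shares were closer in pool4. Its ratio was 3.76 (3.69 to 3.83). Sirpa, the inhibitory receptor for CD47, was at 238.5 against 57.5 CPM and at 196.8 against 37.3 CPM, and was found in 28 of 41 against 10 of 50 cells. Ptpn2, a phosphatase that dampens JAK-STAT signalling, was at 126.7 against 10.8 CPM in pool3 and 49.7 against 8.27 CPM in pool4, in 18 of 41 against 2 of 50 cells. It had 0 of 29 cells at 10 CPM among the negative cells with Selp.

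The most abundant of the named genes were Serpinb1a and Clu. Serpinb1a (chr13:32842092-32851185), an intracellular inhibitor of serine proteases, was at 2697 against 691 CPM in pool3 and 2103 against 543 CPM in pool4. Its level in single cells was 0 to 16418 CPM (median 1090) in positive and 0 to 3962 CPM (median 280.2) in negative cells, and the ratio was 4.02 (3.98 to 4.07). Clu (chr14:65968483-65981547), which encodes the secreted chaperone clusterin, was at 956 against 241.6 CPM and at 2950 against 764 CPM. It ranged from 0 to 12094 CPM (median 563) in positive and from 0 to 23294 CPM (median 0.442) in negative cells, and the highest negative cell lay above every positive cell. Its log2 ratio of 1.76 was 2.64 without the highest cell of each class. Clu reached 34501 CPM in LN_HEV and 197.4 CPM in TU_EC, so both tumour classes were far below the lymph node level. Serpinb1a, at 385.7 CPM in LN_HEV and 60.3 CPM in TU_EC, was in contrast higher in both tumour classes than in either reference group. Over both plates it was at 2416 CPM in positive and 601 CPM in negative cells.

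The other named genes were found in fewer cells. Rdh10, which oxidises retinol on the way to retinoic acid, was at 60.4 CPM against 0 counts in pool3 and at 79.7 against 18.4 CPM in pool4, in 12 of 41 against 3 of 50 cells. In LN_HEV it stood at 274.8 CPM in 79.6% of cells, and in TU_EC at 10.3 CPM. Thsd7a, a membrane protein with thrombospondin repeats, was at 40.9 against 6.25 CPM and 105.3 against 1.57 CPM, but in pool3 only 4 of 25 against 3 of 24 cells held it, and in pool4 13 of 16 against 2 of 26. Tmem168, a membrane protein, had 0 counts in negative cells of pool3, and 13 of 41 positive against 3 of 50 negative cells held it. Tubgcp3, a part of the gamma-tubulin complex, was held by 14 against 5 cells, Fbxw5, a substrate adaptor of ubiquitin ligases, by 13 against 3, and Lias, the lipoic acid synthase, by 15 against 5. Slc16a9, of the monocarboxylate transporter family, was held by 15 against 6 cells, Zdhhc3, a palmitoyltransferase, by 13 against 5, and Slc35f5, of a solute carrier family, by 23 against 12. The ratios of these 9 genes ran from 3.69 for Slc16a9 and Slc35f5 to 21.0 for Thsd7a. Without the shared cells they ran from 2.74 for Slc16a9 to 29.8 for Rdh10, and Tmem168 moved from 6.23 to 29.7, Rdh10 from 6.17, Tubgcp3 from 5.90 to 17.8 and Lias from 4.08 to 15.8.

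The 15 genes named as lower in positive cells were led by Jup, Cldn5 and Gpihbp1. Jup (chr11:100368958-100397763), the junction protein plakoglobin, was at 0.940 CPM in positive and 260.9 CPM in negative cells of pool3, and at 1 count in positive and 317.8 CPM in negative cells of pool4. It was found in 1 of 41 against 19 of 50 cells, with at most 22.7 CPM in a positive cell and up to 5764 CPM in a negative cell. Cldn5 (chr16:18776847-18778262) was at 17.2 against 377.97 CPM in pool3 and 0.150 against 695 CPM in pool4. Gpihbp1 (chr15:75596628-75599481) was at 54.0 against 824 CPM and 28.2 against 746 CPM. The class sums were 581-fold (419 to 829), 62.6-fold (57.9 to 67.7) and 18.6-fold (17.9 to 19.3) higher in negative cells for Jup, Cldn5 and Gpihbp1. Without the shared cells Jup had 2 counts in the positive and 16526 in the negative class, a ratio of 9526 with an interval of 2637 to 78666. The median negative cell had 0 CPM of each of these 3 genes, so the sums came from part of the class.

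The remaining named lower genes were also at 0 CPM in the median negative cell, except Cdh13, Myo10 and Cdk17. Igfbp3 (chr11:7206086-7213923), a binding protein of insulin-like growth factors, was at 12.5 against 625 CPM in pool3 and 274.6 against 1697 CPM in pool4, in 4 of 41 against 16 of 50 cells. In positive cells it came mostly from 1 cell at 3635 CPM, and its log2 ratio of -3.23 was -5.55 without the highest cell of each class. Cdh13, the GPI-anchored T-cadherin, was the most widespread: 15 of 41 positive and 34 of 50 negative cells held it, at 88.6 against 754 CPM over the classes. Rgcc, a cell cycle regulator of capillary endothelium, was at 31.9 against 291.5 CPM, Cxcl12, the ligand of CXCR4, at 101.3 against 527 CPM (5.20-fold higher in negative cells, and 3.21-fold without the shared cells), and Notch4, an endothelial Notch receptor, at 15.7 against 110.2 CPM. Pdgfb, which recruits pericytes, was held by 7 of 41 against 13 of 50 cells, and Myo10, a motor of filopodia, by 11 against 26. The others were Rflnb, a filamin-binding protein (5 against 21 cells), Myo1d, an unconventional myosin (6 against 13), Dpy19l1, of the C-mannosyltransferase family (5 against 16), Cdk17, a cyclin-dependent kinase (4 against 21), and Cep192, a centrosome protein (7 against 14). Without the highest cell of each gene in each class, 29 of the 30 log2 ratios lay farther from 0, and that of Serpinb1a was 1.91 in place of 2.01. The naming rule already asked for 2-fold without the highest cell of the higher class. Leaving out the highest cell of the lower class moves a ratio away from 0 by construction, so this count is no independent check. Without the shared cells, all 15 lower and all 15 higher named genes were still at least 2-fold apart in both plates, and the log2 ratio closest to 0 was -1.68 among the lower and 1.45 among the higher genes.

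Part of the negative class had neither Selp nor Ackr1 at 10 CPM. The ratios were therefore computed again with the negative class limited to its 29 cells with Selp at 10 CPM or more. This choice was made after the data had been seen. All 15 named higher genes were again at least 2-fold higher in positive cells in both plates. Over both plates together, Il15 was 10.6-fold higher than in these negative cells, Clu 7.31-fold, Sirpa 2.78-fold, Cxcl10 2.63-fold and Serpinb1a 2.57-fold. Of the 15 lower genes, 8 remained at least 2-fold lower in both plates. Over both plates together, Gpihbp1, Rgcc, Igfbp3 and Cxcl12 were no longer lower, with log2 ratios of 0.61, 0.93, 1.45 and 0.21. Rgcc was above 0 in each plate, at 1.23 and 0.40. The other 3 turned with the plate: Igfbp3 was at -1.38 in pool3 and 2.06 in pool4, Gpihbp1 at 2.07 and -0.51, and Cxcl12 at 2.20 and -0.53. Jup and Cldn5 stayed lower, at -6.35 and -2.95, and among the 29 cells 3 held Jup and 4 held Cldn5. Dpy19l1 (12 of 29 cells), Cdk17 (11 of 29) and Cep192 (10 of 29) also stayed lower, with log2 ratios of -3.10, -2.54 and -3.26. In this comparison 7.04% of 7542 genes were at least 2-fold higher and 4.72% at least 2-fold lower in both plates, and 69.4% of the genes higher and 38.5% of the genes lower against all negative cells were among them (48.8% and 47.5% of the second sets). The 2 comparisons share the positive cells and part of the negative cells.

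Next came the genes of sulfated selectin ligand synthesis, other than Chst4. All 19 genes of this list were measured and 14 reached 20 CPM. None of the 14 was 2-fold apart the same way in both plates, which is close to the 4.94% and 5.82% of all genes and so says little about the list. The list had a median log2 ratio of 0.40, with 0.71 in pool3 and 0.02 in pool4. Chst2 was at 50.1 CPM in positive and 42.3 CPM in negative cells, with log2 ratios of 0.79 and 0.02 in the plates. It was held by 15 of 41 positive and 8 of 50 negative cells. B3gnt3 was at 106.5 against 76.2 CPM, in 21 and 14 cells. Of the negative cells, 21 of 50 held Chst2 or B3gnt3 at 10 CPM or more, and 27 of 41 positive cells did. The sialyltransferase genes St3gal4 (249.1 against 157.6 CPM) and St3gal6 (256.8 against 194.4 CPM) were the most abundant of the list. Fut7, the fucosyltransferase of lymph node HEVs, was at 20.0 against 7.71 CPM in 4 and 3 cells, while LN_HEV stood at 1045 CPM. No positive cell of pool4 held Fut7 at 10 CPM.

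Among 6 measured genes for mucin-like carriers of selectin ligands, 1 gene, at a low level, was at least 2-fold higher in both plates. Of all genes tested, 4.94% were higher. Glycam1, the secreted sialomucin of lymph node HEVs, was at 163.2 against 105.1 CPM in 11 and 7 cells, against 64620 CPM in LN_HEV. Cd34 was at 2009 against 1515 CPM, Cd300lg, an HEV-associated mucin-like receptor, at 627 against 630 CPM, Emcn (endomucin) at 528 against 706 CPM and Podxl (podocalyxin) at 50.5 against 111.5 CPM. Parm1 had no count in either class. Madcam1, the addressin bound by integrin alpha4beta7, was the member at least 2-fold higher in both plates, at 35.2 against 0.270 CPM. Its counts came from few cells, 4 of 41 against 1 of 50 at 10 CPM or more.

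Of the other genes typical of lymph node HEVs, Sphk1 alone was at least 2-fold higher in both plates, against 4.94% of all genes. Of 12 genes, 9 were measured and 8 reached 20 CPM, 7 of which were above 0 on the log2 scale in both plates, where 29.4% of all genes were. The list median was 0.90 (0.80 in pool3, 0.73 in pool4), and 1.11 without the shared cells. Lrg1, a secreted glycoprotein abundant in HEVs, was at 5541 against 2629 CPM and was found in 41 of 41 and 38 of 50 cells. Ackr1 was at 3421 against 1674 CPM, Lifr, the receptor for leukaemia inhibitory factor, at 687 against 368.1 CPM, Apoe at 855 against 464 CPM, and Ch25h, the cholesterol 25-hydroxylase, at 182.1 against 65.4 CPM in 12 cells of each class. Spns2, the exporter of sphingosine 1-phosphate, was at 203.4 against 147.1 CPM, and Sphk1, which makes it, at 25.0 against 0.090 CPM in 4 and 0 cells. Enpp2 (autotaxin) went the other way, at 350.7 against 481 CPM, with log2 ratios of 0.19 and -1.06 in the plates. Ccl21a, the chemokine of lymph node HEVs at 19093 CPM in LN_HEV, was under 0.1 CPM in both tumour classes. Il33 had no count in either class, and Ggt5 and Dclk1 had at most 1 count in a class. Against the negative cells with Selp, the list median was 0.21.

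The venous and leukocyte adhesion genes, among them Selp, were not 2-fold apart in both plates. The list of 12 had a median of 0.50 (0.24 and 0.55 in the plates). None of the 11 genes at 20 CPM was 2-fold apart the same way in both plates. Of all genes tested, 4.94% were higher and 5.82% lower. Above 0 in both plates were 6 genes of the list, against 29.4% of all genes tested. Selp was at 3756 against 1719 CPM with log2 ratios of 0.44 and 1.78. Sele (E-selectin) was at 652 against 411 CPM in 35 of 41 and 20 of 50 cells, Vcam1 at 949 against 571 CPM, Icam1 at 1089 against 747 CPM and Vwf, the von Willebrand factor, at 744 against 539 CPM. Nr2f2, the venous transcription factor COUP-TFII, was at 59.9 against 53.0 CPM and Ephb4 at 136.1 against 137.5 CPM. Icam2 (276.01 against 340.2 CPM), Bmp4 (32.7 against 38.4 CPM), Tll1 (108.5 against 73.6 CPM), Bst1 (13.6 against 3.04 CPM) and Flt4 (8.01 against 31.7 CPM) complete the list. Against the negative cells with Selp, which were chosen by a member of the list, its median was -0.10.

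Some capillary, arterial and tip cell genes were lower in positive cells. Of 12 capillary genes, 5 were at least 2-fold lower in both plates (Gpihbp1, Rgcc, Tcf15, Timp4, Lpl) and 0 higher, where 5.82% of all genes were lower. The median was -0.69. Cd36 (2192 against 3083 CPM) and Fabp4 (1921 against 3565 CPM), which take up and carry fatty acids, were found in all 41 positive cells all the same. Lpl, lipoprotein lipase, was at 2.56 against 230.02 CPM, in 2 and 7 cells. Of the 6 arterial genes at 20 CPM, 4 were lower in both plates: Gja4, the gap junction protein connexin 37, had 0 counts against 160.1 CPM in 5 cells, Sox17 was at 33.9 against 172.9 CPM, Hey1 at 1.92 against 115.6 CPM, and Cxcl12 was described above. Of 10 tip cell and angiogenic genes at 20 CPM, Kcne3, Nid2 and Cxcr4 were lower in both plates, Nid2 at 9.29 against 141.6 CPM. Plvap, the diaphragm protein of fenestrated vessels, and Angpt2 leaned the other way, at 5430 against 2916 CPM and 599 against 355.9 CPM. The list medians were -2.39 (arterial) and -2.02 (tip cell), and -2.43 and -2.16 without the shared cells. The summed level per cell, which the abundant members set, was lower in the median positive cell for arterial genes alone: the median cell had 6501 CPM of tip cell genes in the positive and 4217 CPM in the negative class, 6777 and 6510 CPM of capillary genes, and 297.9 and 444 CPM of arterial genes. Against the negative cells with Selp the arterial and tip cell medians were 0.36 and 0.54, and the capillary median was 0.46. Only 3 arterial, 7 tip cell and 9 capillary genes reached 20 CPM in that comparison, so these medians rest in part on genes at low levels. Kcne3 was the 1 gene of the 3 lists at least 2-fold higher in both plates there, and 0 were lower.

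**Figure D4:**
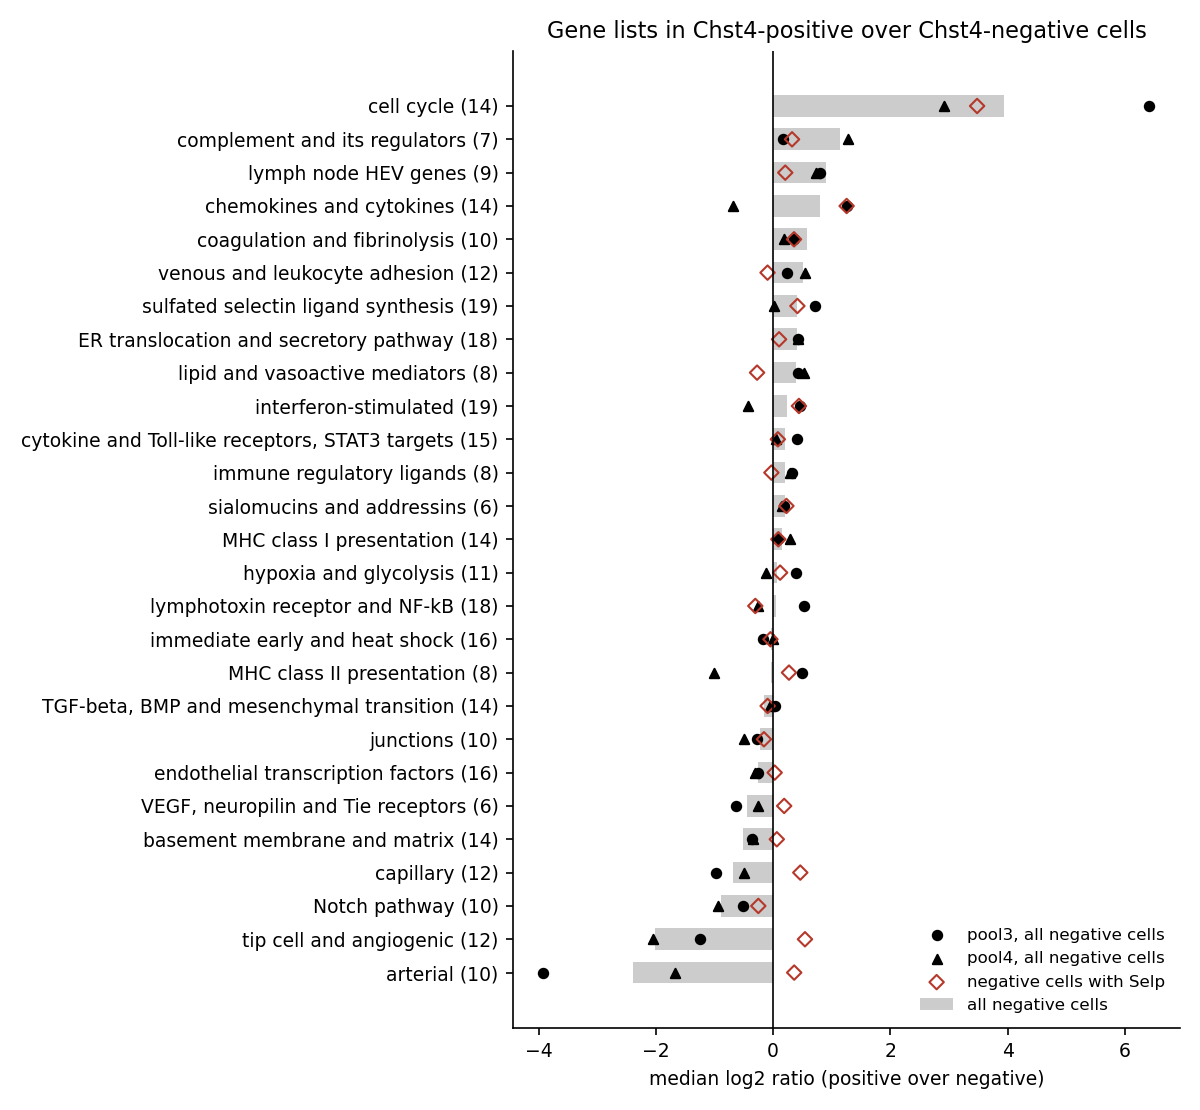
Median log2 ratio of positive over negative cells for the 27 gene lists (number of measured genes in brackets). Bars use all negative cells over both plates, black circles and triangles are pool3 and pool4, and open diamonds use the 29 negative cells with Selp, where the arterial median is 0.36 in place of -2.39. Only 3 arterial genes reached 20 CPM in that comparison.

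Cell cycle genes were found in a subset of the positive cells. Of 12 cell cycle genes at 20 CPM, 8 were at least 2-fold higher in both plates (Mki67, Top2a, Ccnb1, Ccnb2, Cdk1, Birc5, Mcm2, Rrm2) and none lower, where 4.94% of all genes were higher. The list median was 3.94 (6.42 in pool3 and 2.91 in pool4). At least 3 of the 14 genes were at 10 CPM or more in 15 of 41 positive and 4 of 50 negative cells. By plate this was 10 of 25 against 1 of 24, and 5 of 16 against 3 of 26. At equal depth it was 17 and 4 cells, and without the shared cells 14 of 35 and 2 of 40. Mki67, the proliferation antigen, was at 50.8 against 16.0 CPM in 8 and 4 cells, Top2a, topoisomerase II alpha, at 33.6 against 1.70 CPM in 8 and 1 cells, and Mcm2, a part of the replicative helicase, at 86.3 against 4.42 CPM in 11 and 1 cells. Most positive cells held few of these transcripts, and the median cell had 2 of the 14 genes at 10 CPM against 1 in the negative class. Pcna was at 188.7 against 146.2 CPM in 23 and 21 cells.

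Among chemokines and cytokines the genes went both ways. Of 12 genes at 20 CPM, Cxcl10, Il7 and Il15 were higher in both plates and Ccl2, Csf1 and Ackr2 lower, against 4.94% and 5.82% of all genes. Il7, a survival factor of lymphocytes, was at 28.7 CPM in positive cells and had 0 counts in negative cells, but only 3 cells held it. Ackr2, a scavenging chemokine receptor, had 0 counts in positive cells and came from 3 negative cells. Cxcl9, which shares its receptor with Cxcl10, was at 608 against 345.4 CPM, with log2 ratios of 1.34 and 0.00 in the plates. Csf3 turned with the plate, at 1.84 and -2.59. Il6 was at 306.1 against 253.4 CPM and Cxcl1 at 379.9 against 190.5 CPM. The list median was 0.80, with 1.26 in pool3 and -0.68 in pool4.

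In the other lists at most 2 genes passed 2-fold in both plates, where 4.94% of all genes were higher and 5.82% lower. The interferon-stimulated genes had a median of 0.24 with 0.47 and -0.43 in the plates, the MHC class I genes 0.16, the lymphotoxin receptor and NF-kB genes 0.05 with 0.53 and -0.26, and the immediate early and heat shock genes -0.04, with Hspa1a and Hspa1b lower in both plates. Of the 17 genes of the ER translocation and secretory pathway at 20 CPM, 11 were above 0 in both plates and 1 below. Of all genes tested, 29.4% were above and 26.5% below. The median of this list was 0.40 (0.42 in each plate). The basement membrane and matrix genes had a median of -0.51, the Notch pathway -0.88 with Notch4 and Jag2 lower in both plates, the VEGF, neuropilin and Tie receptors -0.44, and the endothelial transcription factors -0.25. Complement and its regulators had a median of 1.15 with 0.17 and 1.28 in the plates, and Cd59a was higher in both. Of the coagulation and fibrinolysis genes, with a median of 0.58, Thbd (thrombomodulin) and Plat (tissue plasminogen activator) were lower in both plates. Medians of the remaining lists were 0.38 for lipid and vasoactive mediators (Ednrb lower in both plates), 0.21 for cytokine and Toll-like receptors with STAT3 targets, 0.20 for immune regulatory ligands, 0.07 for hypoxia and glycolysis (Pdk1 lower), -0.04 for MHC class II presentation (0.50 in pool3 and -1.004 in pool4), -0.15 for TGF-beta, BMP and mesenchymal transition, and -0.22 for junctions (Cldn5 lower). Ifit2 was the interferon-stimulated gene lower in both plates.

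The named genes were then read in cells that had no part in choosing them. Of the 15 genes higher in Chst4-positive tumour cells, 14 were at more CPM in LN_HEV than in TU_EC, as were 54.7% of all genes tested, and 8 were at least 2-fold higher there, against 12.8% of all genes tested. All 15 genes lower in positive cells were at more CPM in TU_EC than in LN_HEV, and 13 were at least 2-fold higher in TU_EC, against 14.5% of all genes tested. Cxcl10 was the exception among the higher genes, at 27.3 CPM in LN_HEV and 138.3 CPM in TU_EC. TU_EC lies in another file and set of plates than LN_HEV, so tissue, gate and plate cannot be told apart in this reading. In cells thinned to 100000 counts, the median LN_HEV cell held 6 of the 15 higher and 2 of the 15 lower genes, and the median TU_EC cell 2 and 9. The median positive cell held 8 and 2, and the median negative cell 2 and 5, values that the naming itself favours. More higher than lower genes were held by 38 of 41 positive, 8 of 50 negative, 95.9% of LN_HEV and 5.30% of TU_EC cells. Among the negative cells, 34 held more lower than higher genes and 8 held equal numbers. Of the 7 cells between the classes, which chose no gene, 4 held more higher genes and 3 more lower genes, and Selp or Ackr1 was found in 4 and Cldn5 or Gpihbp1 in the other 3.

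**Figure D5:**
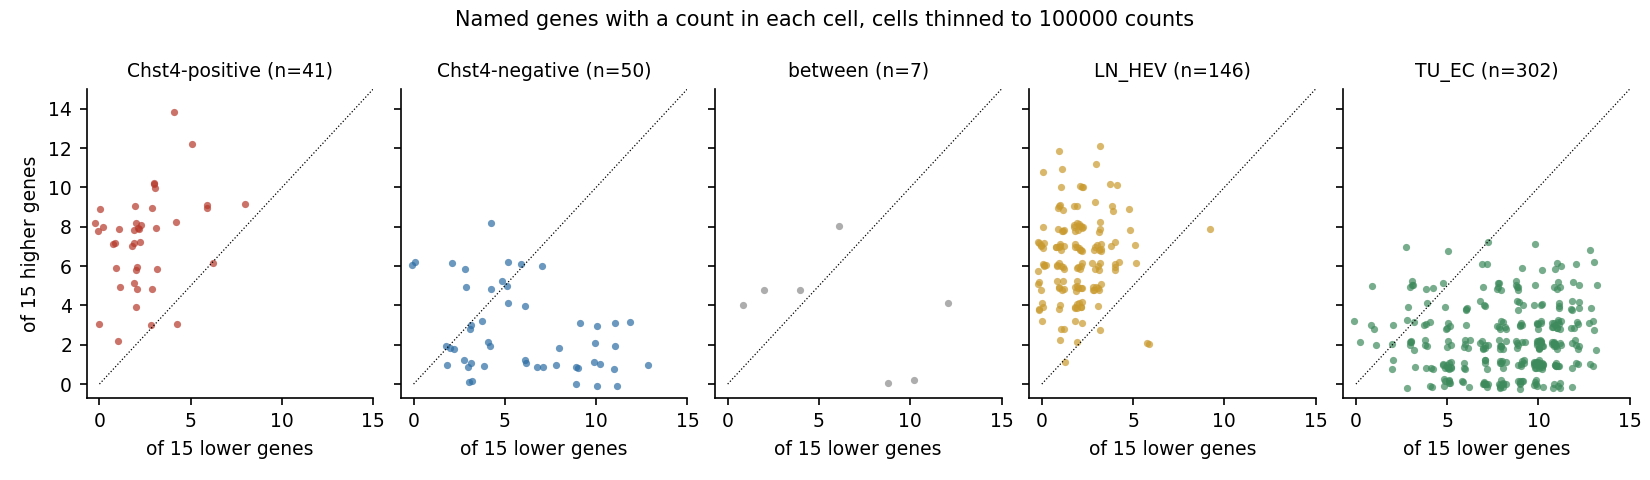
Number of the 15 higher genes (vertical) against the 15 lower genes (horizontal) with a count in each cell thinned to 100000 counts, with points moved slightly at random so that they do not cover each other. Cells above the dotted line hold more higher than lower genes, as 38 of 41 positive, 95.9% of LN_HEV and 5.30% of TU_EC cells did.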

How the data were processed

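Single cells were sequenced with Smart-seq2, and the authors deposited raw read counts per gene and cell, per the labels (23 PCR cycles, no molecular identifiers). The submitters' processing notes name STAR 2.4.1b, Subread 1.4.6-p2 and FastQC 0.11.4 with mm10 (GRCm38). These notes and labels give neither the annotation nor the use of strand, so antisense and overlapping genes are uncertain. Rows of repeated symbols were summed (51826 features to 51734). Cells needed 50000 counts, 1000 genes, at most 30% mitochondrial counts and 2 of Pecam1, Cdh5, Tie1, Egfl7 and Eng at 10 CPM. No doublet caller was run on these sorted wells. Counts were summed per class and plate, scaled to CPM and compared as ratios with exact 95% intervals, and a class at 0 was set to 3 counts. A list's median runs over members with at least 3 counts in a class, and a member counts as 2-fold apart when it is so over both plates together and in each. Named genes were the 15 each way with the largest smaller-of-plates log2 ratio among genes at 50 CPM or more with a count in 30% of cells, at least 2-fold apart in both plates and again without the highest cell, and found in more cells of both plates. Clone and model names and genes for haemoglobin, antigen receptors, ribosomal proteins and mitochondrial RNAs were not eligible. Members of lists could be named too. The classes and the 27 gene lists and 9 marker lists were chosen with earlier results of these data known. Cells were thinned with seed 1. Positions are from GENCODE release 21 (mouse). The ratio code was tested on simulated counts. Python 3 libraries were pandas, numpy and SciPy.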

Additional observations from a re-analysis of the deposited data

How the results depend on the processing

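With 1 sample a class no value carries a biological error. No test was run, so there was no paired analysis, and the classes were set side by side within each plate instead. The genes at least 2-fold higher (4.94% of those tested) and lower (5.82%) stayed within 1.5 times in number and share under 11 of 15 alternatives each. They made up 20.7% and 20.1% with pool3 alone and 16.9% and 19.4% with pool4 alone, where no other plate had to be passed, 2.61% and 3.59% of genes at 50 CPM or more, and 5.79% and 6.34% (1017 and 1112 genes) with no CPM minimum. Except with the negative class limited to cells with Selp, the log2 ratios of the 15 named genes stayed between 0.96 and 9.03 for the higher and between -13.4 and -1.68 for the lower genes. The arterial median was -4.37 without the highest cell of each gene. With the negative class limited to cells with Selp, chosen after seeing the data, the medians were 0.21 (lymph node HEV genes), -0.10 (venous), 0.46 (capillary), 0.36 (arterial) and 0.54 (tip cell), the log2 ratios of Gpihbp1, Rgcc, Igfbp3 and Cxcl12 were 0.61, 0.93, 1.45 and 0.21, and the share of cells with Gpihbp1 was 7.74 percentage points higher in positive cells; fewer negative cells enter by construction, and the cause was not tested. In that comparison 9 capillary, 3 arterial and 7 tip cell genes reached 20 CPM. The contaminant rule left out no cell. By read sampling alone, depth limits Chst4 at 0 counts to about 10.8 CPM in the shallowest negative cell, and transcripts lost before sequencing are not covered.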
